A study of Mus musculus with 6 samples.

Results

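The mitochondrial carriers of solute carrier family 25 were examined in 661W cells after 24 h of light. Every line of the authors' expression table whose symbol is Slc25a followed by digits alone was taken, which gave 47 of 24879 lines. In Light, the largest called change among them was a 2.64-fold rise of Slc25a33, a mitochondrial carrier of pyrimidine nucleotides. Slc25a28, an iron carrier, and Slc25a39, the glutathione carrier, also rose in Light under every setting tried. The most abundant member, the ADP/ATP carrier gene Slc25a4, averaged 353 FPKM in Light and 347 FPKM in Dark, with overlapping groups.

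661W is an immortalised mouse line from a retinal tumour, driven by a viral T antigen under the promoter of interphotoreceptor retinoid-binding protein, and the labels describe the cells as photosensitive. The Light group (3 libraries) spent 24 h at 2000 ± 100 lux of cold white fluorescent light. The Dark group (3 libraries) was kept without light for the same 24 h, and all cultures grew in DMEM with fetal bovine serum and antibiotics. The labels name no separate cultures behind the 3 libraries of a group, so p-values measure the spread between these libraries, which may be technical. Values are FPKM (fragments mapped to a gene, scaled by transcript length and library size), so levels of different genes can be compared per length. FPKM summed to 459198 to 471471 per Light library and 411186 to 434372 per Dark library, and the read depth behind them is unknown.

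The labelled cell type was checked against markers. None of 15 cone and rod photoreceptor markers reached a mean of 1 FPKM, and Opn1mw, Arr3, Pde6c, Cngb3, Rcvrn and Nrl were listed at 0 in all 6 libraries. The photoreceptor markers together summed to 1.19 to 1.51 FPKM in Light and 1.10 to 2.22 FPKM in Dark. Of 6 fibroblast markers, Col1a1, Col1a2, Col3a1 and Pdgfra passed 1 FPKM, and the list summed to 358 to 388 FPKM in Light and 738 to 854 FPKM in Dark. Mueller glia markers summed to 34.6 to 36.3 FPKM in Light and 53.8 to 57.4 FPKM in Dark, with Glul and Slc1a3 over 1 FPKM of 4. Microglia and macrophage markers summed to 7.94 to 9.94 FPKM in Light and 3.95 to 4.96 FPKM in Dark, with Cd68 alone over 1 FPKM of 4, and endothelial markers to 4.16 to 4.69 FPKM in Light and 6.51 to 7.63 FPKM in Dark, with Flt1 alone over 1 FPKM of 4. The fibroblast, glial, macrophage and endothelial sums did not overlap between groups. None of 7 retinal ganglion cell markers (0.314 to 0.563 FPKM summed in Light, 0.317 to 0.561 FPKM in Dark) or 4 pigment epithelium markers (0.0774 to 0.240 FPKM in Light, 0.116 to 0.252 FPKM in Dark) passed 1 FPKM. The part of these markers in the carrier results was not tested. In bulk RNA of this kind, fewer cells of a type and less RNA per cell cannot be told apart.

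SLC25 proteins sit in the inner mitochondrial membrane, where each exchanges or imports particular solutes: adenine nucleotides, phosphate, carboxylates, amino acids, cofactors, iron or glutathione. They set which metabolites pass between cytosol and matrix, because that membrane is otherwise closed to them. Photoreceptors carry dense mitochondria and a high ATP demand. Some members lie elsewhere: the Slc25a17 protein is in the peroxisome membrane and the Slc25a46 protein in the outer mitochondrial membrane.

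Of the 47 carriers, 37 averaged 1 FPKM or more across both groups and were tested. In all 37 both group means were above 1 FPKM, with 1.42 FPKM the lowest, so no member entered through a single group. By limma on log2(FPKM + 1), adjusted over all 11068 genes tested, 10 carriers were higher in Light, among them Slc25a3, Slc25a5, Slc25a13, Slc25a28, Slc25a29, Slc25a33, Slc25a38, Slc25a39 and Slc25a44. A further 5 were lower (Slc25a16, Slc25a24, Slc25a30, Slc25a32 and Slc25a51), and 22 were not called. After scaling all libraries to an equal FPKM sum (equal totals), 5 carriers were higher and 7 lower. Over all 11068 genes, 1212 were higher and 2902 lower with that scaling. Without it the called share of the carriers was 40.5%, against 35.6% of all genes tested, which is near that background. By direction, 27.0% of the carriers were higher in Light against 19.2% of all genes, and 13.5% were lower against 16.4%. The groups did not overlap for 23 carriers (16 higher and 7 lower in Light), or 62.2%, against 52.6% of all genes tested (28.2% higher and 24.4% lower).

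**Figure D1:**
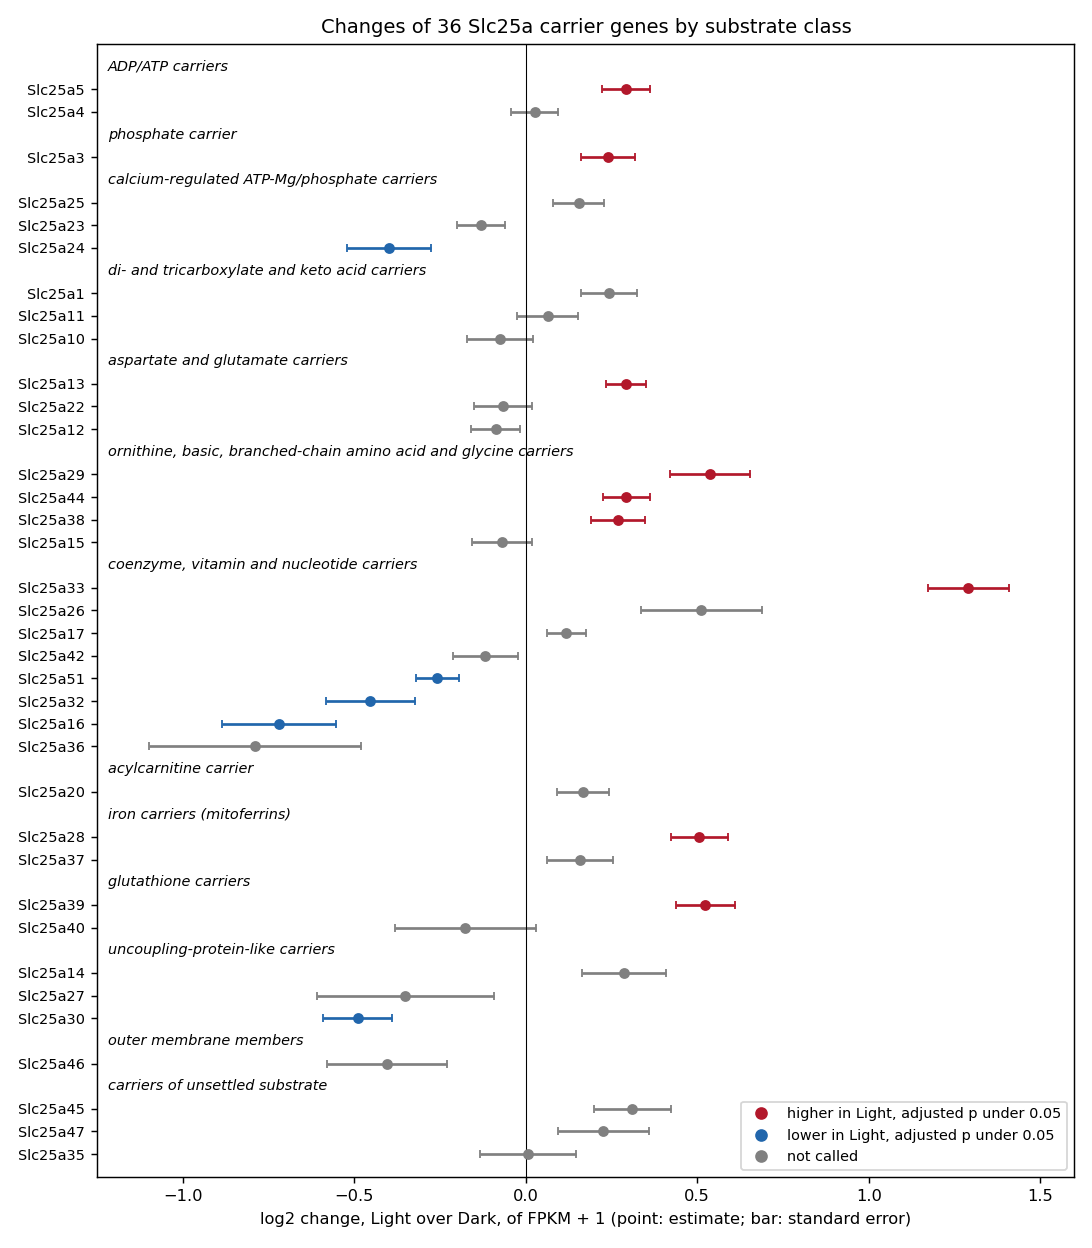
Log2 change of FPKM + 1, Light over Dark, for 36 carrier genes, arranged by substrate class, with points for the estimate and bars for the standard error. Red points are genes called higher in Light, blue points the 5 lower and grey points those not called. Slc25a33, at 1.29, lies farthest to the right.

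The median log2 change of the carriers was 0.12, against -0.01 over all genes, and it became -0.02 (against -0.13) under equal totals. The sign of the carrier median thus turned, though it lay above the median of all genes in both scalings. The gap was narrower in other settings. With trends on transcript length and GC content removed the carrier median was 0.031, against 0.018 over all genes. With quantile normalization it was 0.058, against 0.0255. These gaps were not tested. Summed over all 47 lines, the carriers held 1784 ± 51.6 FPKM in Light and 1575 ± 69.0 FPKM in Dark (SD, n = 3 each). The groups did not overlap (exact permutation test, 2-sided, p = 0.1, the smallest that 3 against 3 libraries allow). As a share of all FPKM in a library the pool was 0.376% to 0.389% in Light and 0.368% to 0.380% in Dark, and these ranges overlapped (exact p = 0.2). Called carriers other than Slc25a33, Slc25a28 and Slc25a39 each lost their call in at least 1 of the 15 alternatives. Leaving out Light 2, Light 3 or Dark 3 left only those 3 called by limma, with 0 called lower (5 in each of these fits at an unadjusted p under 0.05). Over all genes these fits called 693 to 749 higher and 533 to 564 lower, against 2128 and 1810 with all 6 libraries. Without Light 1 or without Dark 1, 3 carriers were called lower. These fits have 2 libraries in 1 group.

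Carriers that serve ATP synthesis dominated the pool. Slc25a4, Slc25a5 and Slc25a3 together made up 58.5% to 59.3% of the summed carrier FPKM in Light and 57.9% to 59.2% in Dark. Slc25a4 encodes the ADP/ATP carrier typical of heart and muscle, which swaps matrix ATP for cytosolic ADP. It stood at 341, 354 and 366 FPKM in Light libraries 1 to 3 and at 332, 357 and 353 FPKM in Dark libraries 1 to 3. The groups overlapped, and the log2 change was 0.03 ± 0.07 (SE; limma adjusted p = 0.779), with a sign that turned under equal FPKM totals (-0.12, not called). Slc25a4 was called lower in Light under quantile normalization (-0.23, limma adjusted p = 0.0110) and with length and GC trends removed (-0.16, limma adjusted p = 0.0262).

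Slc25a5 encodes the ADP/ATP carrier found in most growing cells. Its values were 350.0, 363 and 361 FPKM in Light and 276, 311 and 291 FPKM in Dark. Every Light library lay above every Dark library, a log2 change of 0.29 ± 0.07 (SE; limma adjusted p = 0.0206). The call was lost under equal FPKM totals (0.15, adjusted p = 0.0528), with length and GC trends removed (0.12, adjusted p = 0.0821) and under quantile normalization (0.01). The longest Slc25a5 transcript shared 46.6% of its 50-base stretches with 9 other annotated genes, Slc25a5-ps and predicted genes not listed in the table, so its reads may be split or merged with copies and its level is uncertain.

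The balance between these carriers is their ratio. Slc25a4 over Slc25a5 in FPKM was 0.973, 0.973 and 1.01 in Light and 1.20, 1.15 and 1.21 in Dark. On the log2(FPKM + 1) scale the ratio was 0.27 lower in Light than in Dark, with groups that did not overlap (-0.27; exact permutation p = 0.1, the smallest possible, and 0.138 after Benjamini-Hochberg adjustment over 11 related pairs).

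Slc25a3, which brings phosphate into the matrix for ATP synthesis, had 322, 348 and 343 FPKM in Light and 267, 309 and 282 FPKM in Dark. No Dark library reached the lowest Light library. The log2 change was 0.24 ± 0.08 (SE; limma adjusted p = 0.0494). That call lay at the threshold: it was lost under equal FPKM totals (0.10) and turned to -0.03 under quantile normalization, while removal of length and GC trends gave 0.47.

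**Figure D2:**
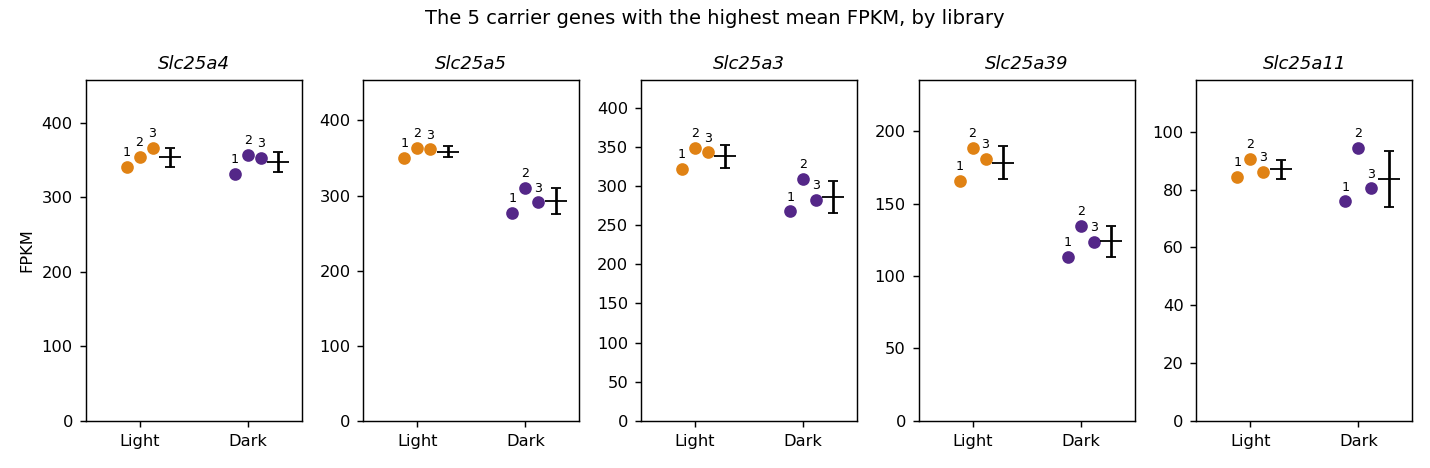
FPKM of the 5 carrier genes with the highest mean, in each Light library and each Dark library, numbered as in the labels, with the mean and SD of 3 libraries beside the points; axes start at 0. Slc25a5, Slc25a3 and Slc25a39 separate the groups, whereas the points of Slc25a4 and Slc25a11 overlap.

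The calcium-regulated ATP-Mg/phosphate carriers adjust the adenine nucleotide content of the matrix. Slc25a24 fell to 13.5 ± 0.878 FPKM in Light, against 18.3 ± 3.20 in Dark (SD, n = 3 each), a log2 change of -0.40 ± 0.12 (SE; limma adjusted p = 0.0418). Its paralogs were not called: Slc25a23 averaged 8.97 FPKM in Light and 9.92 in Dark (log2 change -0.13), and Slc25a25 averaged 8.75 FPKM in Light and 7.76 in Dark (0.15). Slc25a23 was called lower in Light under equal totals (-0.26, limma adjusted p = 0.0265) and with length and GC trends removed (-0.25, limma adjusted p = 0.0160). The Slc25a24 over Slc25a25 ratio was 1.71, 1.41 and 1.52 in Light and 2.97, 1.92 and 2.24 in Dark, without overlap. Summed, the class held 31.3 ± 0.715 FPKM in Light and 36.0 ± 2.70 in Dark (exact p = 0.1).

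Nucleotide and cofactor carriers held the widest spread of changes in the family, from 1.29 for Slc25a33 to -0.79 for Slc25a36 on the log2 scale. Of 9 tested, 2 rose, 3 fell and 4 were not called. Slc25a33 (chromosome 4 from 149744036 to 149774277, minus strand, mm10, protein-coding) encodes a pyrimidine nucleotide carrier that in human cells responds to insulin-like growth factor and supplies nucleotides for mitochondrial DNA and RNA. It stood at 17.5, 22.4 and 23.7 FPKM in Light and at 7.39, 8.27 and 8.37 FPKM in Dark. Every Light library stood far above every Dark library, a log2 change of 1.29 ± 0.12 (SE; limma adjusted p = 0.000659). Over all alternatives it lay between 1.08 and 1.42 and stayed called. Of its 50-base stretches, 12.6% also occur in the annotated antisense gene Gm13068, and as the strand setting of the counting is not given in the sources used here, reads of that gene cannot be told apart from Slc25a33 there.

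Slc25a36 encodes the other pyrimidine nucleotide carrier and was chosen for description after its values were seen. It had 5.11, 2.90 and 4.25 FPKM in Light and 12.4, 4.71 and 7.46 FPKM in Dark. Dark 1 was far above the other Dark libraries, Dark 2 lay below Light 1, and the change was not called (-0.79 ± 0.31, SE; limma adjusted p = 0.0808). Without Dark 1 and Light 2 it was -0.30, and with length and GC trends removed -0.36, neither called. Slc25a36 was called lower without Dark 2 (-1.09, limma adjusted p = 0.0141). It was also called lower with the replicate number as a block (-0.79, limma adjusted p = 0.000247). Of the 50-base stretches of Slc25a36, 11.8% also occur in Gm13217, a gene with no FPKM listed, so reads may be split or merged between them. Slc25a33 over Slc25a36 in FPKM was 3.42, 7.71 and 5.58 in Light and 0.595, 1.76 and 1.12 in Dark. Of the 11 pairs this was the widest shift on the log2 scale, 2.08 higher in Light without overlap (exact permutation p = 0.1, the smallest possible, adjusted 0.138).

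Slc25a16, whose human protein has been linked to coenzyme A transport, had 3.50, 2.32 and 3.03 FPKM in Light and 6.50, 4.29 and 5.80 FPKM in Dark. Each Light library was below each Dark library, and the log2 change was -0.72 ± 0.17 (SE; limma adjusted p = 0.0179). Slc25a42, the established carrier of coenzyme A, averaged 3.52 FPKM in Light and 3.92 in Dark and was not called (-0.12, or 0.06 under quantile normalization). The Slc25a16 over Slc25a42 ratio was 0.987, 0.691 and 0.830 in Light and 1.49, 1.15 and 1.57 in Dark, without overlap.

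**Figure D3:**
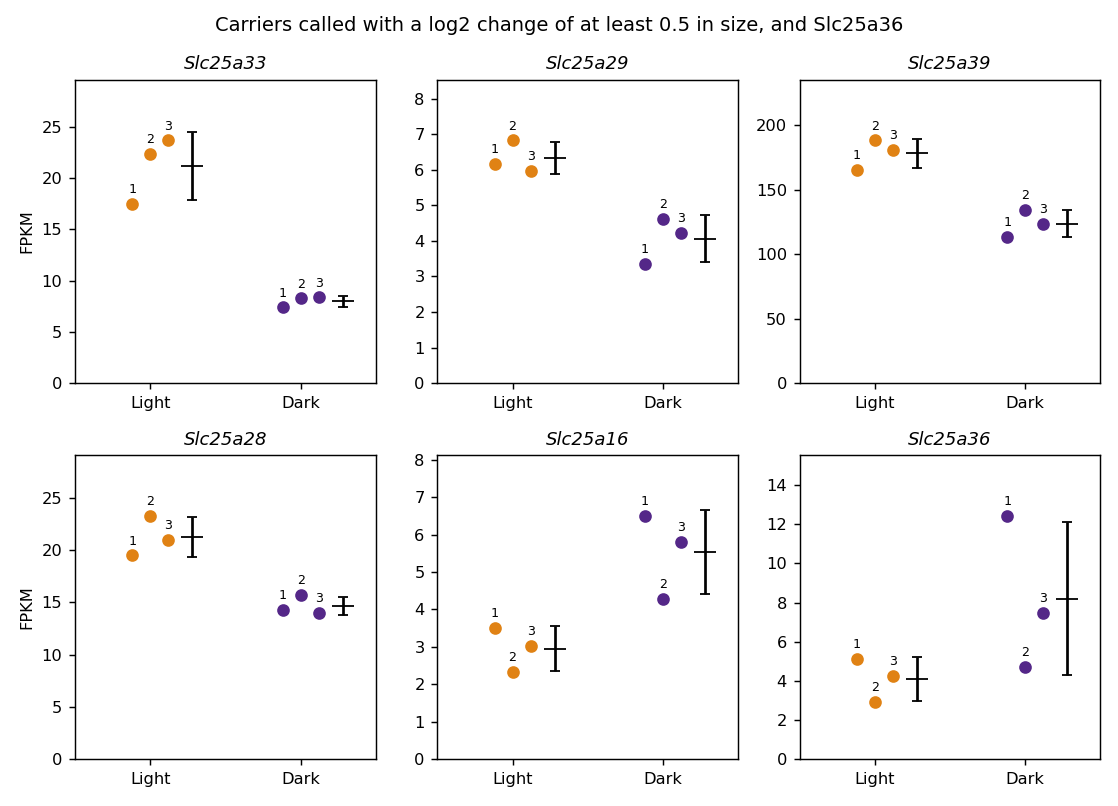
FPKM per library for the 5 called carriers with a log2 change of at least 0.5 in size and for Slc25a36, with Light left of Dark in each panel, library numbers above the points, and the mean with SD of 3 libraries beside them; axes start at 0. Slc25a33 shows no Light value under 17.5 FPKM and no Dark value over 8.37 FPKM, and Dark 1 stands apart for Slc25a36.

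Other cofactor carriers fell or were not called. Slc25a51, the mitochondrial NAD carrier, fell to 17.0 ± 0.610 FPKM in Light, against 20.5 ± 0.763 in Dark (SD, n = 3 each; log2 change -0.26 ± 0.06 SE, limma adjusted p = 0.0208), which lost its call with length and GC trends removed (-0.17) and under median centring (-0.20). Slc25a32, a folate and flavin carrier, fell to 4.97 ± 0.307 FPKM in Light, against 7.25 ± 1.44 in Dark (-0.45 ± 0.13 SE, limma adjusted p = 0.0341). The Slc25a32 change went to -0.0026 once length and GC trends were removed. Slc25a26, the S-adenosylmethionine carrier, averaged 3.97 FPKM in Light and 2.53 in Dark and was not called (0.51, limma adjusted p = 0.0573), though it was under quantile normalization (0.67) and median centring (0.57). Its exons overlap Lrig1 on the opposite strand. Slc25a17, the peroxisomal member, averaged 53.1 FPKM in Light and 48.8 in Dark and was not called (0.12, or -0.02 under equal totals).

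Of the iron carriers and of the glutathione carriers, 1 gene each rose; its paralog was not called, but was called higher in Light with length and GC trends removed. Slc25a28 (mitoferrin 2; chromosome 19 from 43663801 to 43674881, minus strand, mm10, protein-coding) carries iron into mitochondria for iron-sulphur cluster and haem synthesis in most cells. It had 19.5, 23.3 and 21.02 FPKM in Light and 14.3, 15.7 and 14.01 FPKM in Dark. Light lay above Dark throughout, by a log2 change of 0.51 ± 0.08 (SE; limma adjusted p = 0.00627). Slc25a37 (mitoferrin 1), the erythroid form, averaged 15.3 ± 1.10 FPKM in Light and 13.7 ± 1.51 in Dark and was not called (0.16, limma adjusted p = 0.214). With length and GC trends removed Slc25a37 was called higher in Light (0.36, limma adjusted p = 0.00387), beside 0.43 for Slc25a28 in that setting. The Slc25a37 over Slc25a28 ratio overlapped between the groups (exact permutation p = 0.2), so a difference between the mitoferrins was not shown. Together the mitoferrins held 36.6 ± 1.01 FPKM in Light and 28.3 ± 1.02 in Dark.

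Slc25a39 (chromosome 11 from 102402985 to 102407946, minus strand, mm10, protein-coding) imports glutathione into mitochondria. It stood at 166, 188 and 181 FPKM in Light and at 113, 135 and 124 FPKM in Dark, the fourth highest level in the family. Every Light library was above every Dark library, a log2 change of 0.52 ± 0.09 (SE; limma adjusted p = 0.00621), which became 0.27 with length and GC trends removed and kept its call. Slc25a40, the paralog with the same substrate, stood far lower, at 6.03 ± 1.19 FPKM in Light and 7.05 ± 2.06 in Dark. It was not called (-0.18 ± 0.20 SE, limma adjusted p = 0.508), and its sign turned with length and GC trends removed (0.25, called higher, limma adjusted p = 0.0229) and without Dark 1 and Light 2 (0.10). The Slc25a39 over Slc25a40 ratio was 22.5, 37.1 and 32.0 in Light and 12.4, 27.0 and 17.5 in Dark, and Light 1 lay inside the Dark range. Summed, the glutathione carriers took 10.3% ± 0.295 of the carrier pool in Light and 8.31% ± 0.188 in Dark (SD, n = 3 each; exact p = 0.1).

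The start-site windows of the 3 carriers called under every setting, and of Slc25a36, the pyrimidine carrier that was not called, are printed here to show what these genes do and do not share at their promoters. Each runs from 250 bases before to 50 after a RefSeq transcription start (build GRCm38.p6), 5′ to 3′ on the gene's strand. Capitals mark matches on either strand to the antioxidant response element core TGACNNNGC or the E-box CACGTG.
Slc25a33, chr4:149774218-149774517, minus strand: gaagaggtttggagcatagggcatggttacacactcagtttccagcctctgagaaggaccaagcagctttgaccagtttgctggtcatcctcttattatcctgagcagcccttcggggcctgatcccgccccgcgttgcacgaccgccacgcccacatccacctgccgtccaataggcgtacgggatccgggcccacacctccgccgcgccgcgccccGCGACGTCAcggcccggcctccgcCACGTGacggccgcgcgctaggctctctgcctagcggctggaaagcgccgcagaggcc
Slc25a36, chr9:97110992-97111291, minus strand: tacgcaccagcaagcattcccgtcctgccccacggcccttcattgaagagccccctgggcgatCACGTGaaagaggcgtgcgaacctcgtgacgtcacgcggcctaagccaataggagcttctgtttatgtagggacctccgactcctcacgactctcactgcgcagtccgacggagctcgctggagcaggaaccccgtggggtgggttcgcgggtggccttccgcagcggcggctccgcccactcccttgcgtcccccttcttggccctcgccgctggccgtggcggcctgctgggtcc
Slc25a28, chr19:43674832-43675131, minus strand: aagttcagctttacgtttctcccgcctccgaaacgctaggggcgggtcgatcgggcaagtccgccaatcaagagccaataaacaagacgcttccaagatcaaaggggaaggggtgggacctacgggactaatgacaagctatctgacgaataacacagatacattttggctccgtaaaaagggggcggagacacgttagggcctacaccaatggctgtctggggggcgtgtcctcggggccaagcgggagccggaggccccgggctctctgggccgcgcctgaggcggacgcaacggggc
Slc25a39, chr11:102407468-102407767, minus strand: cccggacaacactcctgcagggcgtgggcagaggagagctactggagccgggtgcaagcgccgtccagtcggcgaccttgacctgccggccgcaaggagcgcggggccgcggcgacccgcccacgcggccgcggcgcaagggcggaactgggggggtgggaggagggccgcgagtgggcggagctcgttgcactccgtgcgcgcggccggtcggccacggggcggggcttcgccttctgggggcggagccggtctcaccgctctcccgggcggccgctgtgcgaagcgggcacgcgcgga

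In the Slc25a33 window the TGACNNNGC match lies on the other strand, with its first printed base 32 bases before the start, and the E-box begins 8 bases before it. Slc25a36 shares only the E-box, which begins 187 bases before its start, and neither motif is in the Slc25a28 or Slc25a39 windows. The Slc25a39 window lies wholly inside the annotated gene, whose 5′ end is at 102407946. Bases around and before that end were therefore not searched. A RefSeq window was matched for 36 of the 47 carriers. TGACNNNGC was present for 9 of these 36, against 13.99% of 27025 genes with a window, and CACGTG for 7 (19.4%), against 8.09%. The 9 with TGACNNNGC include Slc25a3, Slc25a5, Slc25a33 and Slc25a38, which rose, together with Slc25a14, Slc25a23, Slc25a25 and Slc25a40, which were not called, and Slc25a53, which was not tested. The C/EBP-ATF composite motif TGATGNAAN was in 0 of 36 windows, against 4.50% of genes. The motif of nuclear respiratory factor NRF1 was present for 2 carriers (5.56%, against 5.19%) and TCACNCCAC (SREBP) for 1 (2.78%, against 1.44%), counting both strands in every search. These matches describe letters in the windows only.

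Among carriers of ornithine and of basic, branched-chain and small amino acids, 3 of 4 tested rose (Slc25a29, Slc25a44 and Slc25a38) and Slc25a15 was not called. Slc25a29, which carries arginine, lysine and other basic amino acids, had 6.17, 6.82 and 5.97 FPKM in Light and 3.34, 4.63 and 4.23 FPKM in Dark. The groups were apart, with a log2 change of 0.54 ± 0.12 (SE; limma adjusted p = 0.0153), or 0.31 with length and GC trends removed. Slc25a44, a carrier of branched-chain amino acids, rose to 19.6 ± 1.21 FPKM in Light, against 15.8 ± 0.448 in Dark (0.29, limma adjusted p = 0.0188), a call lost under equal totals (0.16, limma adjusted p = 0.0838). Slc25a38, a glycine carrier that feeds haem synthesis, rose to 13.3 ± 0.283 FPKM in Light, against 10.9 ± 0.911 in Dark (0.27, limma adjusted p = 0.0364). The Slc25a38 call was lost under equal totals (0.14) and with length and GC trends removed (0.03). Slc25a15, the ornithine and citrulline exchanger, averaged 4.83 FPKM in Light and 5.13 in Dark and was not called (-0.07, or 0.11 under quantile normalization). The class summed to 44.1 ± 1.61 FPKM in Light and 36.0 ± 1.88 in Dark, without overlap (exact p = 0.1).

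The aspartate/glutamate carriers export aspartate from the matrix as part of the malate-aspartate shuttle. Slc25a13 (citrin) rose to 21.1 ± 0.360 FPKM in Light, against 17.0 ± 0.464 in Dark (SD, n = 3 each), a log2 change of 0.29 ± 0.06 (SE; limma adjusted p = 0.0116). The call was lost under equal totals (0.16, limma adjusted p = 0.0711). Slc25a12 (aralar), its paralog, averaged 14.6 ± 0.765 FPKM in Light and 15.6 ± 0.746 in Dark and was not called (-0.09, or 0.19 with length and GC trends removed). Under equal totals Slc25a12 was called lower (-0.22, limma adjusted p = 0.0431). Slc25a12 over Slc25a13 was 0.722, 0.643 and 0.719 in Light and 0.892, 0.972 and 0.889 in Dark. The ratio was thus lower in each Light library than in any Dark library, by 0.38 on the log2(FPKM + 1) scale (exact permutation p = 0.1, adjusted 0.138). Slc25a22, a glutamate carrier, averaged 14.2 FPKM in Light and 14.9 in Dark and was not called (-0.07).

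The 3 carboxylate carriers tested were abundant and were not called, but with length and GC trends removed Slc25a10 (-0.30, limma adjusted p = 0.00349) and Slc25a11 (-0.17, limma adjusted p = 0.0315) were called lower in Light. Slc25a11, the oxoglutarate/malate carrier and among the 5 most abundant members, had 84.4, 90.5 and 86.1 FPKM in Light and 75.9, 94.4 and 80.4 FPKM in Dark. The groups overlapped (log2 change 0.06 ± 0.09 SE, limma adjusted p = 0.592), and the sign turned under equal totals (-0.08). Slc25a1, which exports citrate, averaged 66.2 ± 4.12 FPKM in Light and 55.9 ± 4.59 in Dark, with groups apart but no call (0.24, limma adjusted p = 0.0553), and -0.01 with length and GC trends removed. Slc25a10, the dicarboxylate carrier, averaged 48.6 FPKM in Light and 51.5 in Dark (-0.08). Slc25a20, which exchanges acylcarnitines for carnitine in fatty acid oxidation, averaged 19.9 FPKM in Light and 17.6 in Dark and was not called either (0.17).

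The uncoupling-protein-like carriers did not move together. Slc25a30, named a kidney mitochondrial carrier, fell to 10.5 ± 0.557 FPKM in Light, against 15.2 ± 1.96 in Dark (SD, n = 3 each; log2 change -0.49 ± 0.10 SE, limma adjusted p = 0.0129). Its relative Slc25a14 averaged 6.17 ± 1.05 FPKM in Light and 4.84 ± 0.368 in Dark and was not called (0.29, limma adjusted p = 0.1001), though it was under quantile normalization (0.45). The Slc25a14 over Slc25a30 ratio was 0.658, 0.600 and 0.499 in Light and 0.303, 0.380 and 0.282 in Dark, which did not overlap (difference 0.78 on the log2 scale; exact permutation p = 0.1, adjusted 0.138). Slc25a27 averaged 1.42 FPKM in Light and 2.13 in Dark and was not called (-0.35, or 0.03 without Dark 1 and Light 2).

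Slc25a46, the outer membrane member involved in mitochondrial shape, averaged 9.32 ± 1.66 FPKM in Light and 12.8 ± 2.82 in Dark and was not called (-0.41, limma adjusted p = 0.102). With length and GC trends removed the value was -0.04. Carriers placed here among those of unsettled substrate were not called: Slc25a45 averaged 5.06 FPKM in Light and 3.91 in Dark (0.31), Slc25a47 2.55 in Light and 2.03 in Dark (0.23), and Slc25a35 2.05 in Light and 2.06 in Dark (0.01). Under quantile normalization Slc25a45 (0.48) and Slc25a47 (0.39) were called higher, and Slc25a45 also under median centring (0.37). Slc25a35 shares 25.8% of its 50-base stretches with Rangrf, an overlapping gene on the opposite strand with 26.5 FPKM on average, so its level is uncertain. Slc25a47 and Slc25a29 lie head to head on chromosome 12 with 162 bases between them.

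**Figure D4:**
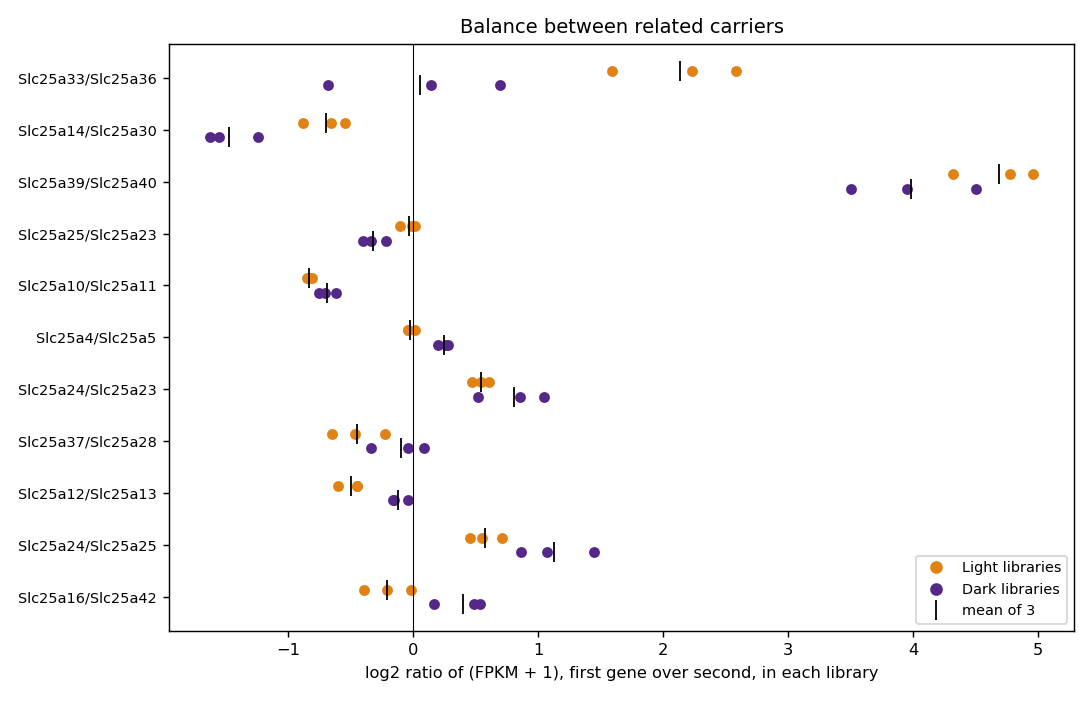
Log2 ratio of (FPKM + 1) of the first gene over the second in each library for 11 pairs of related carriers, with orange points for Light, purple points for Dark and a black tick for the mean of 3. In 8 of the 11 pairs the groups do not overlap; Slc25a39/Slc25a40, Slc25a24/Slc25a23 and Slc25a37/Slc25a28 overlap.

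In all, 8 of 11 related pairs had ratios that did not overlap between Light and Dark. Among single genes, 52.6% of all tested did not overlap, and the share for gene pairs in general was not computed. With 3 libraries against 3 none of the pairs could pass an exact p of 0.05. A planned pair, Slc25a18/Slc25a22, was not compared because Slc25a18 was below 1 FPKM. The 10 untested carriers (Slc25a2, Slc25a18, Slc25a21, Slc25a31, Slc25a34, Slc25a41, Slc25a43, Slc25a48, Slc25a53 and Slc25a54) did not exceed 0.673 FPKM in any library. That value belonged to Slc25a53 in Dark 3. Slc25a31, the germ-line ADP/ATP carrier, and Slc25a43 were listed at 0 in all 6 libraries.

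The 5 carriers that fell in Light had 41.2% to 47.9% GC and longest transcripts of 3145 to 5905 bases, against medians of 49.8% and 3145 bases over the tested carriers. The 10 that rose had 43.6% to 60.4% GC and 1240 to 4039 bases. Over the 37 tested carriers the Spearman correlation of the log2 change was 0.53 with GC content and -0.55 with length. Over 10664 genes it was 0.47 and -0.46, so the same tilt ran through the whole table. These are descriptions across genes, which share the same 6 libraries. With the tilt removed from each library, Slc25a33 stood at 1.08, Slc25a28 at 0.43, Slc25a39 at 0.27, Slc25a16 at -0.55 and Slc25a30 at -0.37, all called by limma. Whether the tilt is technical was not tested.

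Of the 5 carriers that fell, 4 (all but Slc25a51) had their highest Dark value in Dark 1, their lowest Dark value in Dark 2 and their lowest Light value in Light 2. Without Dark 1 and Light 2 the 5 stood between -0.49 (Slc25a16) and -0.23 (Slc25a24), and 0 were called by limma (4 carriers were lower at an unadjusted p under 0.05). Dark 1 and Light 2 lay at opposite ends of the first principal component (-36.5 and 31.7), which held 78.5% of the variance. Leaving both out thus shrinks group differences by design. This fit has 2 libraries in each group. Over all genes it called 785 higher and 642 lower, against 2128 and 1810 with all libraries. In the same fit Slc25a33, Slc25a28 and Slc25a39 stood at 1.20, 0.42 and 0.42 and were called.

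**Figure D5:**
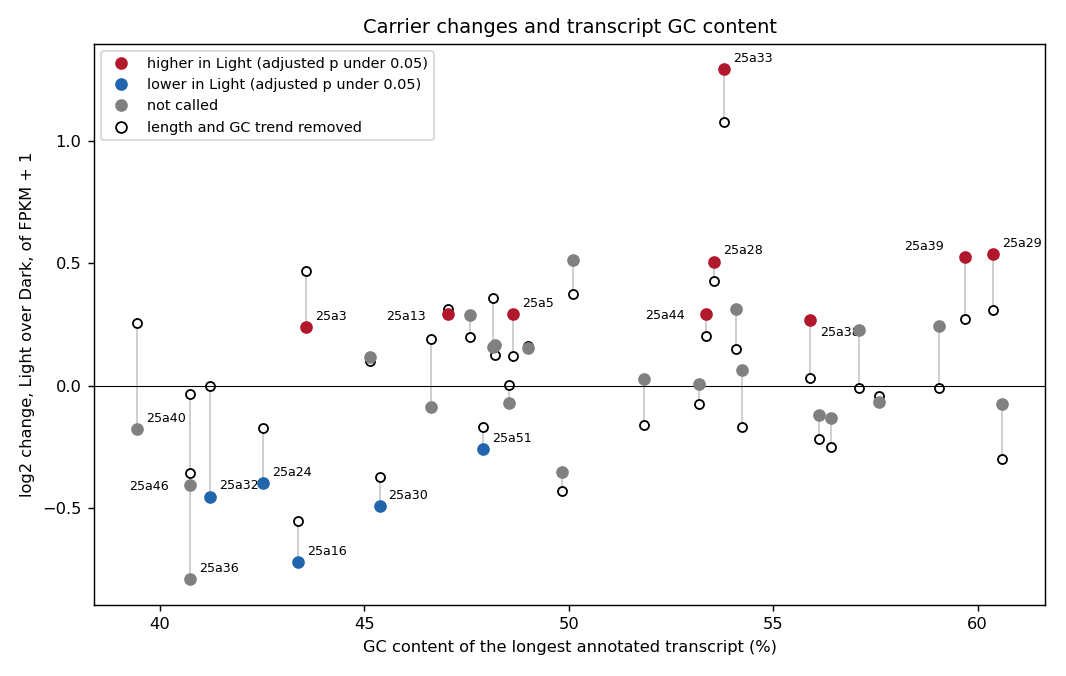
Log2 change of FPKM + 1, Light over Dark, of 36 tested carriers against the GC content of its longest annotated transcript. Filled points are changes as measured, coloured by call, and open points joined to them are the changes with length and GC trends removed. Slc25a32 moves to -0.0026 and Slc25a40 to 0.25, while Slc25a33 stays at 1.08.

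Genes that work beside the carriers were read from lists chosen by function. Carriers are threaded into the inner membrane by the TIM22 route, and of 13 genes of this import machinery 7 were higher in Light and 0 lower. They include the intermembrane chaperone gene Timm10 (log2 change 0.74), the outer membrane receptor gene Tomm20 (0.36) and Timm8a1 (0.35). The 6 not called ran from -0.15 for Tomm70a and -0.06 for Timm9 to 0.25 for Tomm22. Tomm70a was called higher with length and GC trends removed (0.32). At an unadjusted p under 0.05 in the same limma fit, 0 of the 13 were lower too. Under equal totals 3 of the 13 were higher and 0 lower, and Timm8a1 (0.21) lost its call. With length and GC trends removed 8 were higher and 0 lower. Calls on the FPKM as given, here and in the lists that follow, stand beside 19.2% of all genes called higher in Light and 16.4% called lower. Under equal totals 1212 of all 11068 genes were called higher and 2902 lower. With length and GC trends removed 2294 of 10664 genes were called higher and 1863 lower. Of family members under other names, Mtch2, an outer membrane insertase, was higher (0.22) and Mtch1 (0.20) and Ucp2 (-0.23) were not called. Under equal totals Mtch2 lost its call (0.08) and Ucp2 was called lower (-0.38), as it was with length and GC trends removed (-0.31). Ucp1 and Ucp3 were below 1 FPKM.

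Among 22 mitochondrial transporters of other families, 5 were higher and 2 lower, with Ghitm, a proton-coupled calcium transporter, at 0.54, the sterol-binding outer membrane protein gene Tspo at 0.50 and the voltage-dependent anion channel gene Vdac3 at 0.33. Under equal totals 3 were higher and 4 lower, and all 3 of these genes stayed higher. Of 11 genes tested that reflect or control mitochondrial content, 4 were higher and 0 lower by limma, or 1 lower at an unadjusted p under 0.05. Twnk, the mitochondrial DNA helicase, stood at 0.42, the nuclear receptor gene Esrra at 0.39 and Tomm20, which is in both lists, at 0.36. The 7 not called went both ways. Gabpa stood at -0.76 (limma adjusted p = 0.0569), Tfam at -0.18 and Ppargc1b at -0.06. Hspd1 stood at 0.05, Cs at 0.10, Polrmt at 0.19 and Vdac1 at 0.26. Ppargc1a, which was not tested, averaged 0.335 FPKM in Light and 0.643 in Dark. Under equal totals 3 content genes were higher and 1 lower.

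Enzymes that use the solutes of the carriers were called in both directions. Of 16 iron-sulphur and haem synthesis genes, 6 were higher and 1 lower, led by Alas1, the first enzyme of haem synthesis (0.95), with Cpox (0.79) and Urod (0.49). Under equal totals 3 were higher and 1 lower, and with length and GC trends removed 4 were higher and 1 lower; these 3 named genes were called higher in both settings. Of 7 tested urea cycle and ornithine genes 5 were higher and 0 lower by limma. Odc1, the ornithine decarboxylase gene, stood at 0.82, Ass1, which makes argininosuccinate, at 0.79 and the proline synthesis gene Pycr1 at 0.77. At an unadjusted p under 0.05, 0 of the urea cycle and ornithine genes were lower, and the counts were 5 higher and 0 lower in both of those settings too. Of 8 tested mitochondrial folate and glycine genes 4 were higher and 2 lower, with Shmt2 at 0.92, Mthfd2 at 0.85 and Mthfd1l at 0.45, while the folate carrier Slc25a32 fell. The 4 higher and 2 lower were also the counts under equal totals, and 4 and 1 those with length and GC trends removed.

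In the malate-aspartate and glycerol phosphate shuttles, Got1 (0.57) and Got2 (0.40), the aspartate aminotransferases, were higher and Gpd2 lower (-0.23), with 5 tested. Gpd2 was at 0.02 and not called with length and GC trends removed. Of 8 citrate partners, Me1 was higher (0.30) and Idh1 (-0.28) and Acaca (-0.21) were lower. Acaca turned to 0.14, not called, with length and GC trends removed, and Me1 lost its call under equal totals (0.16). Of 5 carnitine shuttle genes, Crat was higher (0.24) and Slc22a5 lower (-0.23), and Crat lost its call under equal totals (0.11). Of 8 tested adenylate genes, Hk2 (0.33) and Ak4 (0.21) were higher and 0 were lower by limma, or 1 at an unadjusted p under 0.05. Under equal totals Hk2 (0.20) and Ak4 (0.08) lost their calls and 1 adenylate gene was lower.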

How the data were processed

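RNA of 6 libraries of 661W cells was extracted with TRIzol and made into sequencing libraries with an mRNA kit, per the labels' protocols; groups and numbers come from the sample titles. The values the authors deposited are FPKM, per the file headers, and the submitters' processing notes name HISAT2 and mm10. Not given in the sources used here are the program behind the FPKM, its annotation, its strand setting and the depth. Whole reads could not be recovered (at most 0.498% of 1407 low genes shared a common step between libraries), so no count model was run, and precision rests on the spread of 3 libraries per group.

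Genes averaging 1 FPKM or more were tested on log2(FPKM + 1), a scale that understates changes of low genes, by limma 3.58.1 in R 4.3.3 (eBayes, trend and robust, 2-sided, group as the only term), with Benjamini-Hochberg adjustment over all 11068 genes and calls under 0.05. Class sums and pair ratios were compared by exact permutation tests over libraries (scipy 1.17.1), 2-sided; class sums were adjusted to 0.163 where p = 0.1. Alternatives were no filter, a mean of at least 5 FPKM, a pseudocount of 0.1, quantile normalization, median centring, equal FPKM totals, loess trends on length and GC content removed (span 0.5, genes with annotation only), the number in the title as a replicate block, leaving out single libraries, and Dark 1 and Light 2 left out. Genomic positions, lengths, GC content and shared 50-base stretches come from GENCODE M21 (mm10), and promoters from RefSeq.

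Library values are given for called carriers with a log2 change of at least 0.5 in size and for the 5 most abundant, and from other lists up to 3 called genes with the smallest p-values. Slc25a36, the pair ratios given per library and the import and content genes named without a call were picked for description after values were seen. The carriers and all lists were chosen with earlier results of these data known. Protein sequences were not used here, and 1 tested carrier is counted but not reported here. The procedure was tested on simulated data, with noise drawn independently for each gene and library. Log2 changes of 0.5, 1 and 2 in size were recovered in 43.3%, 82.1% and 98.5% of changed genes, with 9 false calls among 158. Variation shared across genes was not simulated.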

Additional observations from a re-analysis of the deposited data

How the results depend on the processing

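The 10 carriers higher in Light became 5 with equal FPKM totals, 3 without Dark 1 and Light 2, and 3 to 14 with each library left out in turn. In the same order, the 2128 higher over all genes became 1212, 785 and 693 to 2990. The 5 lower became 3 with no filter on low values, 0 without Dark 1 and Light 2, and 0 to 7 with each library left out. The 1810 lower over all genes became 1109 (of 19300 tested), 642 and 533 to 2884 in these settings. The median log2 change of 0.12 was 0.15 at a mean of at least 5 FPKM, 0.058 with quantile normalization, 0.17 with median centring, -0.024 with equal totals and 0.031 with length and GC trends removed. Over all genes the median of -0.0076 was 0.042, 0.0255, 0.047, -0.13 and 0.018 in the same order. With the replicate number as a block, 16 were higher and 8 lower, beside 3287 and 3403 over all genes. Same-numbered libraries correlated at 0.69, 0.64 and -0.09 in their deviations for numbers 1 to 3. Libraries 1 and 2 of opposite groups correlated at -0.67 and -0.68. Deviations were taken from the group mean and sum to 0 within a group, so these correlations are not independent of each other. Library 3 stood near 0 against every number (-0.09 to 0.08), so the check could not settle whether number 3 is shared. The labels name no culture shared by a number, so the block was kept as an alternative only. Whether a number marks a shared culture was not tested.

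Directions turned for 14 carriers, of which Slc25a3 alone was called. With quantile normalization Slc25a3 stood at -0.029, Slc25a4 at -0.23, Slc25a11 at -0.090, Slc25a15 at 0.11 and Slc25a42 at 0.058. With equal totals Slc25a4 was -0.12, Slc25a11 -0.079, Slc25a17 -0.024 and Slc25a35 -0.091. With length and GC trends removed Slc25a1 was -0.0097, Slc25a4 -0.16, Slc25a11 -0.17, Slc25a12 0.19, Slc25a15 0.0011, Slc25a35 -0.075, Slc25a40 0.25 and Slc25a47 -0.0090. Without Dark 1 and Light 2 Slc25a4 was -0.0083, Slc25a11 -0.031, Slc25a27 0.027 and Slc25a40 0.10. With each library left out in turn, ranges were -0.0074 to 0.052 for Slc25a4, -0.17 to 0.0069 for Slc25a10, -0.0024 to 0.153 for Slc25a11, -0.115 to 0.0026 for Slc25a22, -0.134 to 0.086 for Slc25a35 and -0.373 to 0.0039 for Slc25a40. Of these, Slc25a4 was called lower under quantile normalization, and Slc25a4 and Slc25a11 lower and Slc25a40 higher with length and GC trends removed. The causes were not tested. Depth is unknown, so how far it limits the lowest carriers was not tested.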
